A study of Mus musculus with 3 samples.

Results

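Mature neutrophils without granule genes were described in day 7 fracture callus of mice, as the barcodes that combined high S100a8 and S100a9 with little or no RNA of the granule genes Camp, Ngp and Ltf. Kept barcodes had 500 or more detected genes and no more than 10% of their unique molecular identifiers (UMIs) in mitochondrial genes. A kept barcode was a member if it had at least 2% of UMIs in S100a8 and S100a9 together and less than 0.5% in Camp, Ngp and Ltf together. These rules gave 304 members among 5463 kept barcodes of 14807 in all, with 21 of 1913 in the PTH library, 10 of 606 in the YKL library and 273 of 2944 in the control library. All mice were female C3H/HeJ animals of 9 weeks with a femur pinned inside its marrow cavity and broken at midshaft, and all were injected under the skin every day. The PTH group received parathyroid hormone residues 1 to 34 at 100 µg/kg, the YKL group the salt-inducible kinase inhibitor YKL-05-099 at 15 mg/kg, and the control group the vehicle PBS. Callus was dissected away from the marrow, digested with collagenase and run as 1 droplet library per group, and the labels do not say how many animals a library holds. C3H/HeJ mice carry a Tlr4 mutation that blunts their response to bacterial lipopolysaccharide, and the controls share it.

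Neutrophils are short-lived phagocytes made in the bone marrow. There they fill their granules in a fixed order: primary granules with myeloperoxidase and elastase, secondary granules with lactoferrin (Ltf), cathelicidin (Camp) and neutrophilic granule protein (Ngp), and tertiary granules with gelatinases. Transcription of each granule set stops as the cell matures, while S100a8 and S100a9, the subunits of calprotectin, stay abundant. In inflamed tissue mature neutrophils transcribe cytokines such as interleukin-1 beta (Il1b), chemokines that call in further leukocytes, and genes under NF-kB and interferon control, and they are among the first cells to reach a fracture.

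Promoter sequence is shown for 4 genes that the results below turn on, the chemokine gene Cxcl2 and the interferon-response genes Isg15, Ifit3 and Rsad2. Each window holds 220 bases that end shortly before the RefSeq transcription start and overlap no annotated exon of the gene, in GRCm38.p6, written in the direction of transcription. Capitals mark GGGNNTTTCC, a core NF-kB site, in Cxcl2 and GAAANNGAAA, the core of an interferon-stimulated response element, in the other genes, on either strand. The windows are chr5:90903649-90903868 (plus strand) for Cxcl2, chr4:156200849-156201068 (minus strand) for Isg15, chr19:34583279-34583498 (plus strand) for Ifit3 and chr12:26456483-26456702 (minus strand) for Rsad2.
Cxcl2: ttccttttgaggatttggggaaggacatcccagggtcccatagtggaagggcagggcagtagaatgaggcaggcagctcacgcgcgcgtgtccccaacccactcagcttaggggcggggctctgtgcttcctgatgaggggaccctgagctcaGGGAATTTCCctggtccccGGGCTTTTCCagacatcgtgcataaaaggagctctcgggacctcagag
Isg15: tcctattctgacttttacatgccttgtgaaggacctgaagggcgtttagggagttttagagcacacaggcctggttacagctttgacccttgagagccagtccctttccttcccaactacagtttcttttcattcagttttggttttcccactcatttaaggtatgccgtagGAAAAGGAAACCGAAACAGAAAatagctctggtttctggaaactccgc
Ifit3: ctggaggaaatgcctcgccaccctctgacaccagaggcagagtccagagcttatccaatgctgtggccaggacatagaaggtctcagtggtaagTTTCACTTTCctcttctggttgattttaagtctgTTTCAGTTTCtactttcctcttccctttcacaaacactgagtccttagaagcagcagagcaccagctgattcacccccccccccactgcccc
Rsad2: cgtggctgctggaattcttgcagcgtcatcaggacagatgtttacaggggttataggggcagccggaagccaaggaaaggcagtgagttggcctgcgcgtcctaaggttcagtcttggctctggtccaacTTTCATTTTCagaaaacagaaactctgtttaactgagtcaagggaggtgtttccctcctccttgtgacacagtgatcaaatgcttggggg
Cxcl2 held 2 matches, Isg15 3 that overlap one another, Ifit3 2 and Rsad2 1. Of the 29 interferon-response genes with a window, 14 held GAAANNGAAA (48.3%), among them Cxcl10, Bst2, Stat2 and Ifit1, against 3.07% of all 27025 genes with a window. GGGNNTTTCC was in 2 of 28 NF-kB response genes (7.14%), Nfkb2 and Rel, and in 1.37% of all genes. A match describes the letters of the window and is not evidence of a bound site.

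**Figure D1:**
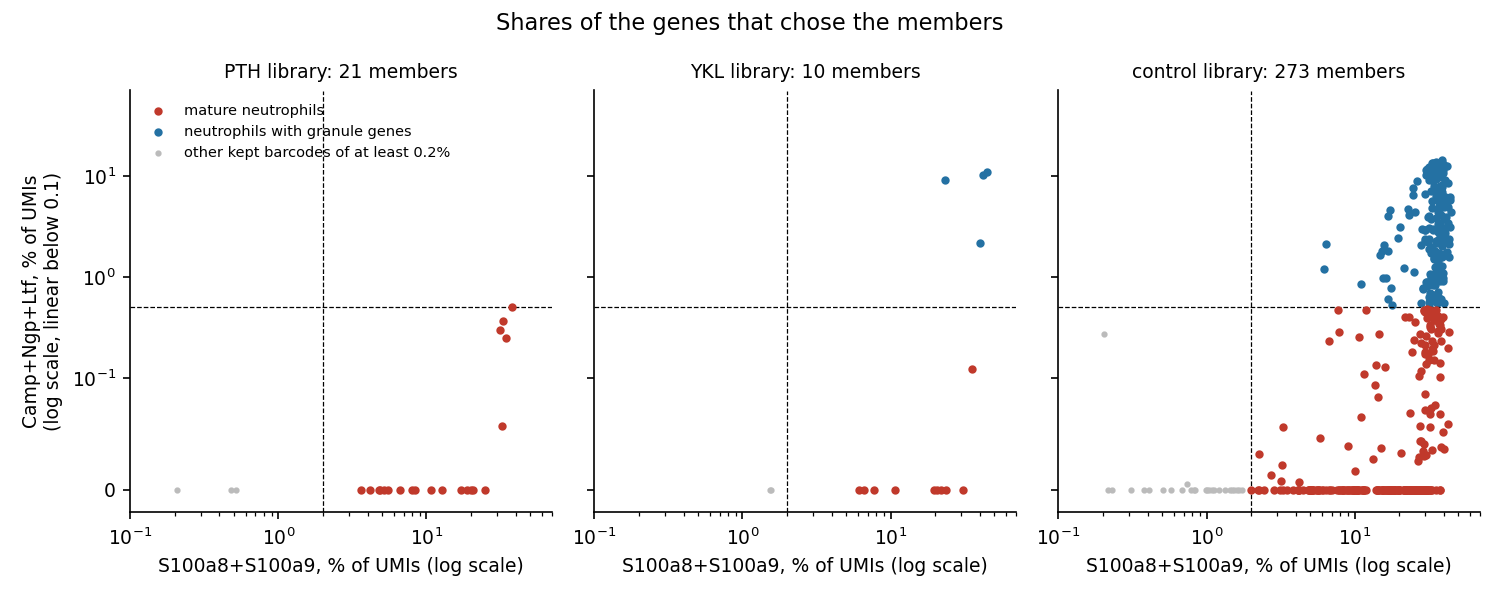
Shares of the genes that chose the members, 1 panel per library (PTH, YKL, control), with S100a8 and S100a9 on the horizontal axis and Camp, Ngp and Ltf on the vertical axis, both in % of UMIs on log scales (vertical axis linear below 0.1). Each point is a kept barcode with at least 0.2% of UMIs in S100a8 and S100a9, dashed lines are the thresholds, red points are members and blue points are neutrophils with granule genes; few barcodes lie just left of 2%, and the PTH panel has no blue point.

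The S100 threshold fell in a thin stretch of the data, and the granule threshold cut a continuum. Between 0.2% and 2% of UMIs in S100a8 and S100a9 lay 3 PTH, 2 YKL and 26 control barcodes, against 21, 14 and 480 at 2% or more. The 10 control members just inside the granule maximum (0.453% to 0.483%) had 863 CPM Il1b and 3615 CPM Lcn2, where CPM is the usual scaling of UMIs to the total of the group. The 10 control barcodes just outside it (0.503% to 0.570%) had 1393 CPM Il1b and 4921 CPM Lcn2. At the S100 minimum, the 10 just inside (up to 3.21%) had 4459 CPM Retnlg and 22081 CPM of the cartilage collagen Col2a1, and the 10 just outside (1.09% to 1.73%) had 1536 CPM Retnlg and 13417 CPM Col2a1. Il1b was level there, at 2131 CPM inside and 2123 CPM outside. Cxcl2 and Csf3r were lower inside, at 1580 and 156 CPM against 2369 and 211 CPM outside. Camp, Ngp and Ltf together had 0 UMIs in 16 of 21 PTH, 9 of 10 YKL and 176 of 273 control members.

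Mature neutrophils made up 1.10% (95% exact binomial interval 0.681 to 1.67) of kept PTH barcodes, 1.65% (0.794 to 3.01) of kept YKL barcodes and 9.27% (8.25 to 10.4) of kept control barcodes. Neutrophils with granule genes, which pass the same S100 minimum and hold at least 0.5% of UMIs in the 3 granule genes, numbered 0 in the PTH library (a count of 3 would be 0.157%, exact upper bound 0.193%), 4 in the YKL library (0.660%) and 207 in the control library (7.03%, 6.13 to 8.02). Mature cells were 21 of 21 neutrophils of the PTH library (83.9 to 100%), 10 of 14 of the YKL library (71.4%, 41.9 to 91.6) and 273 of 480 of the control library (56.9%, 52.3 to 61.4). With 1 library per group no test between groups was possible, and the members were chosen from the same counts that describe them, so every interval covers counting error only.

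S100a9, a gene of the rule, had UMIs in every member, so it is no separate support for the label. Retnlg, Il1b, Cxcl2 and Csf3r, outside the rule, had UMIs in 263, 239, 214 and 205 of 273 control members. At least 3 of the 5 markers S100a9, Retnlg, Il1b, Cxcl2 and Csf3r were detected in 21 of 21 PTH, 10 of 10 YKL and 269 of 273 control members, and all 5 in 11, 6 and 140. Median depth was 1923 UMIs and 682 genes per member in the PTH library, 2377.5 UMIs and 783 genes in the YKL library and 2428 UMIs and 713 genes in the control library. Control neutrophils with granule genes were deeper, at 4484 UMIs and 974 genes. Calprotectin genes, the measure of the rule, took a median of 12.7% of UMIs in PTH members, 20.2% in YKL members, 21.8% in control members and 35.9% in control neutrophils with granule genes.

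RNA of other cells was present in some members. Markers of chondrocytes, fibroblasts and bone, endothelium, macrophages, T and NK cells and B cells together passed 1% of UMIs in 1 of 21 PTH, 0 of 10 YKL and 20 of 273 control members, and in 5 of 207 control neutrophils with granule genes. The 12 chondrocyte markers summed to 983 CPM in PTH members, 2727 CPM in YKL members and 15961 CPM in control members. Without those 20 barcodes the control members held 1651 CPM, against 73287 CPM in control chondrocyte barcodes (Col2a1 at least 1% of UMIs). The 10 macrophage markers summed to 137, 79.0 and 195 CPM in PTH, YKL and control members, with 6, 8 and 0 of the 10 at 0 UMIs, against 34877 CPM in control macrophages. The 12 eosinophil, basophil and mast cell markers summed to 22.9, 0 and 7.87 CPM, with 11, 12 and 8 of them at 0. The 14 monocyte and dendritic cell markers, which are not among those counted for the 1%, summed to 480, 198 and 2551 CPM in PTH, YKL and control members, with 10, 12 and 3 of them at 0, and to 837 CPM in control neutrophils with granule genes. Without the barcodes above 1% they held 772 CPM in control members and 598 CPM in control neutrophils with granule genes, with up to 1.69% of UMIs in 1 member. Haemoglobin genes, from red cells, took 1.78%, 0.395% and 7.95% of UMIs in PTH, YKL and control members and 5.89% in control neutrophils with granule genes. In the PTH library 1 cell held 395 of 465 Hbb-bs UMIs, and the per-cell medians were 0.278%, 0.351% and 1.16% in PTH, YKL and control members. Unless stated otherwise, results below are for all members. Some are also given without the barcodes above 1% (253 control members and 202 control neutrophils with granule genes then remain). A result given only for all members can still move without those barcodes. Lcn2 in control members over control neutrophils with granule genes went from a ratio of 0.143 to 0.164. Ifi27l2a in PTH over control members went from 8.76 to 6.82.

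The mature cells of the control library were set against the neutrophils with granule genes of the same library, where both populations are large. The 2 were split by Camp, Ngp and Ltf, so all values of this contrast are a description with no test. Of 3279 genes with at least 50 UMIs over both populations, 743 (22.7%) were at least 2-fold higher in mature cells and 161 (4.91%) at least 2-fold lower, as ratios of CPM. The rule genes S100a8, S100a9, Camp, Ngp and Ltf took 17.3% of the UMIs of mature cells and 37.8% of those of the other neutrophils, and the median log2 ratio of all genes was 0.43 (0.02 with these genes left out of the totals). Without the barcodes of other-cell RNA, 362 of 2586 genes (14%) were higher and 152 (5.88%) lower, with a median of 0.25. Relative to the median gene of each set, 432 (13.2%) were higher and 310 (9.45%) lower over all members, and 233 (9.01%) and 232 (8.97%) without those barcodes. Other cells' genes stood among the 12 highest by the naming rule. Mmp13, the collagenase of hypertrophic cartilage, was at a ratio of 44.6 over all members, and Ppa1 was at 14.8. Without the barcodes of other-cell RNA both had fewer than 50 UMIs over both populations, so neither was measured. The cartilage genes Snorc and Ucma were at 10.6 and 9.40 over all members and at 2.49 and 2.65 without those barcodes. Spp1, for osteopontin, a matrix protein that phagocytes also secrete, was at 608 CPM against 55.4 CPM over all members, and 5.97-fold higher without those barcodes.

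Secreted signals stood far above the median gene. Cytokine and chemokine genes passed 2-fold upward in 10 of 14 and downward in 1, with a median log2 ratio of 2.15, and relative to the median gene 8 were higher and 1 lower (median 1.72). Monocyte and dendritic cell markers moved with them, with 4 of 5 measured genes higher and 1 lower and a median of 2.16 relative to the median gene (2 of 4 higher and 1.70 without the barcodes of other-cell RNA), and their part in these ratios was not tested. Il1b, the precursor of interleukin-1 beta, was at 4147 CPM in mature cells and 333 CPM in neutrophils with granule genes, a 12.4-fold ratio (11.2 to 13.8) that became 15.0 without the barcodes of other-cell RNA. Per cell it ran from 0 over a median of 4334 to 39437 CPM in control members and had a median of 0 in neutrophils with granule genes, so the ranges overlap at the low end. With every cell thinned to 1000 UMIs, Il1b was seen in 80.1% of control members, 15.0% of neutrophils with granule genes, 8.51% of macrophages and 0.191% of chondrocyte barcodes, which should lack it. Before thinning Il1b was in 87.5% of members (2428 UMIs per cell in the median), 26.6% of neutrophils with granule genes (4484 UMIs), 10.6% of macrophages (6919 UMIs) and 1.27% of chondrocyte barcodes.

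Chemokine genes of the same list were high too. Ccl3 and Ccl4, which encode chemokines that attract monocytes and T cells, were at 1112 and 1390 CPM in mature cells against 81.4 and 89.2 CPM in neutrophils with granule genes, 13.7-fold (11.1 to 17.1) and 15.6-fold (12.8 to 19.2) higher. Cxcl2, a ligand of the neutrophil receptor CXCR2, was at 4313 CPM against 1225 CPM (3.52-fold, 3.32 to 3.74). The CC chemokine genes Ccl6 and Ccl9 were 6.80-fold and 17.2-fold (7.62 to 48.2) higher, with 6 UMIs of Ccl9 in neutrophils with granule genes. Osm, for oncostatin M, an interleukin-6 family cytokine with effects on bone cells, was at 456 CPM against 202 CPM (2.26-fold, 1.93 to 2.66). Tnf did not share this direction, at 32.5 CPM against 39.8 CPM (0.816, 0.505 to 1.30, and up to 1.23 over the alternatives), and Il6 had 0 UMIs in either population.

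Transcription factor genes of the early response were high alongside. Among 23 measured transcription factor genes, 14 passed 2-fold upward and 1 downward (median log2 ratio 1.19, and 0.75 relative to the median gene). Atf3, a stress-induced repressor of the ATF family, was at 721 CPM in mature cells against 27.7 CPM, 26.0-fold higher (18.3 to 38.3), and was seen in 46.0% of thinned mature cells, 2.90% of neutrophils with granule genes and 5.21% of chondrocyte barcodes (60.8%, 3.86% and 25.8% unthinned). The AP-1 genes Fos, Fosb and Junb were 2.72-fold, 9.14-fold and 3.24-fold higher, Egr1 5.14-fold and Cebpb, a factor of emergency granulopoiesis, 2.97-fold. Cebpe, which drives the secondary granule genes, was the member that was lower, with 7 UMIs in mature cells against 345 (0.0231). Collagenase digestion can induce several of these genes: 6 of 13 dissociation and heat shock genes passed 2-fold upward and 0 downward (median 0.93), a list that shares Atf3, Fos, Fosb, Egr1 and Jun with the factors. Both populations came from the control library, and the part of digestion in these ratios was not tested.

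NF-kB response genes and feedback regulators each had members at least 2-fold higher. NF-kB response genes passed 2-fold upward in 14 of 27 and downward in 0 (median 1.06), and relative to the median gene 8 were higher and 1 lower (13 and 0 without the barcodes of other-cell RNA). Ptgs2, the inducible cyclooxygenase, was at 248 CPM against 33.8 CPM (7.35-fold), Ccrl2, an atypical chemerin receptor, 5.32-fold, Hcar2, the nicotinic acid receptor, 5.85-fold, and Acod1, the itaconate-producing enzyme, 3.59-fold higher. Nfkbia, the inhibitor of NF-kB that NF-kB itself induces, was 2.11-fold higher (1.17 to 3.12 over the alternatives). Of 26 feedback regulators 10 were higher and 1 lower (median 0.88), and relative to the median gene 6 and 1 (9 and 1 of 25 without the barcodes of other-cell RNA). Dusp1, a phosphatase that shuts off MAP kinases, was at 1607 CPM against 252 CPM (6.38-fold, 5.63 to 7.25), Socs3, which limits G-CSF and interleukin-6 signalling, 3.53-fold, and Zfp36, which degrades cytokine mRNAs, 2.35-fold. Nlrp3, the inflammasome sensor upstream of interleukin-1 beta cleavage, was 4.63-fold higher at 273 CPM, within a pattern recognition list that had 3 of 19 genes higher and 3 lower.

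Interferon-response genes formed another high group, seen in a minority of the cells. Among 18 measured genes, 11 passed 2-fold upward and 1 downward (median 1.86), and 10 and 1 relative to the median gene. Isg15, an interferon-induced ubiquitin-like modifier, was at 244 CPM in mature cells against 32.9 CPM (7.42-fold, 5.26 to 10.7), and Rsad2, the antiviral enzyme viperin, at 137 CPM against 17.3 CPM (7.90-fold). Ifit1 and Ifit3, RNA-binding antiviral genes, were 19.7-fold (6.38 to 98.7) and 20.5-fold (6.64 to 102) higher from 3 UMIs each in neutrophils with granule genes. Thinned Isg15 was seen in 17.3% of mature cells, 3.38% of neutrophils with granule genes and 0.635% of chondrocyte barcodes (28.6%, 14.0% and 6.21% unthinned). Ifitm6, a myeloid member of the family, went the other way at 320 CPM against 2000 CPM (0.160), and Ifitm1 was 4.54-fold higher.

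Receptors and identity genes held members on both sides. Of 18 chemoattractant and cytokine receptor genes 5 were higher and 1 lower (median 0.64), and of 24 neutrophil identity genes 7 were higher and 5 lower (median 0.55). Relative to the median gene, receptors had 1 higher and 1 lower, and identity genes 5 and 7. Without the barcodes of other-cell RNA these relative counts were 5 and 1, and 7 and 5. Csf3r, the receptor of the neutrophil growth factor G-CSF, was at 438 CPM in mature cells and 122 CPM in neutrophils with granule genes (3.59-fold, 2.96 to 4.37). Cxcr2, a chemokine receptor of circulating neutrophils, was 1.76-fold (1.49 to 2.07) higher, and Cxcr4, the receptor that retains neutrophils in marrow, was at 1.29 (0.972 to 1.72; 0.972 with the rule genes left out of the totals). Retnlg, a resistin-like secreted protein of neutrophils, was nearly level at 24779 CPM against 22641 CPM (1.09 over all UMIs, 1.30 without the barcodes of other-cell RNA and 0.823 with the rule genes left out of the totals). S100a9, a gene of the rule, was at 100526 CPM against 180783 CPM. Of 13 survival and death genes 5 were higher and 0 lower, with Mcl1, which keeps neutrophils alive, 2.30-fold and the kinase gene Pim1 5.22-fold higher. Relative to the median gene 3 of this list were higher and 2 lower (4 and 0 without the barcodes of other-cell RNA). Of 12 markers of tissue neutrophils 6 were higher and 0 lower, and 5 and 1 relative to the median gene. Siglecf, which marks some tumour and airway neutrophils, had 3 UMIs in the 273 control members and was not measured. Tlr4 had 18 UMIs in them, too few as well.

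Genes of granule formation and the cell cycle were lower in mature cells. Secondary granule genes passed 2-fold downward in 12 of 15 and upward in 0 (median -2.35), of which Camp, Ngp and Ltf are the rule itself. Lcn2, lipocalin 2, which starves bacteria of iron, was at 1905 CPM against 13338 CPM (0.143, 0.136 to 0.150), and Chil3, a chitinase-like protein, had 4 UMIs against 852 (0.00534). Cybb, the catalytic subunit of the phagocyte oxidase, was at 183 CPM against 937 CPM (0.195), Serpinb1a, an inhibitor of elastase, at 0.124, Fcnb, a lectin of marrow neutrophils, at 0.0329, and Ly6g, the classic surface marker of mouse neutrophils, at 638 CPM against 2485 CPM (0.257). Anxa3, Cpne3, AA467197 and Ltb4r1, the leukotriene B4 receptor gene, were at 0.205, 0.149, 0.222 and 0.211. The protease genes Mmp8 and Mmp9 were closer, at 0.655 and 0.780. Of 15 proliferation genes 8 were lower and 0 higher, with the mitotic topoisomerase Top2a at 0.204 (0.118 to 0.334), and 11 UMIs of Mki67 among the 273 mature cells.

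**Figure D2:**
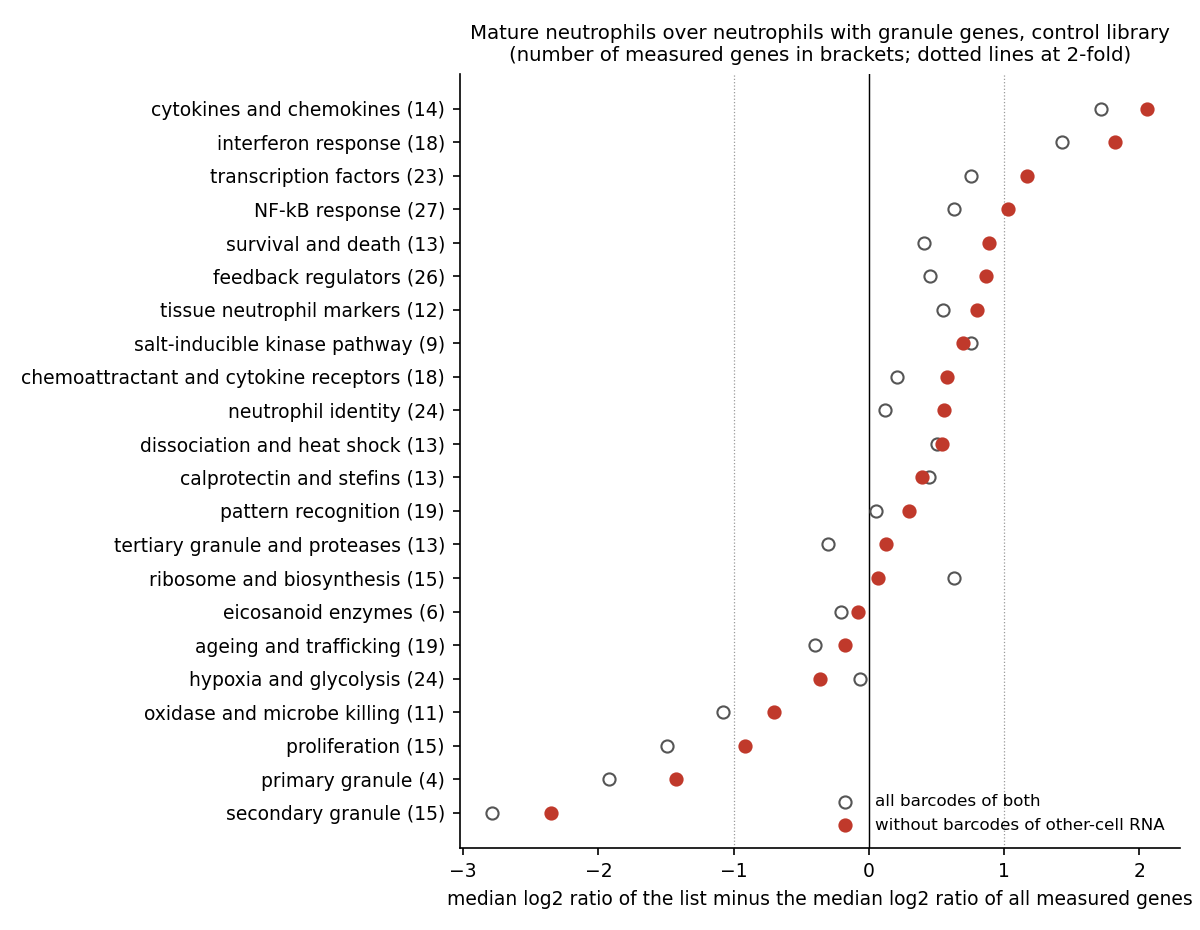
Median log2 ratio of each gene list in mature neutrophils over neutrophils with granule genes of the control library, minus the median log2 ratio of all measured genes (horizontal axis, log2 units), with 1 list per row and its number of measured genes in brackets. Open circles take all barcodes of both populations, filled circles leave out barcodes of other-cell RNA; cytokines and interferon genes lie to the right and the primary and secondary granule lists to the left in both, while the tertiary granule list is at -0.30 for all barcodes and 0.12 without those of other-cell RNA.

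Across the whole range of granule RNA, activation genes and granule genes ran in opposite directions. The 455 control neutrophils without other-cell RNA were put into 6 bins of the share of Camp, Ngp and Ltf, from 0 to 10% and more. Il1b stood at 7824 CPM in the 164 cells at 0, then 2570, 2199, 775, 220 and 91.0 CPM in the 38 cells at 10% and more. Ccl4 stepped down from 2782 CPM at 0 to 32.5 CPM in the last bin, and Atf3 from 1470 CPM to 0. Lcn2 went upward from 1047 to 20933 CPM and Cebpe from 0 to 682 CPM. Retnlg and Mmp8 were highest between, with Retnlg at 24902 CPM at 0, 41807 CPM at 0.1 to 0.5% and 3112 CPM at 10% and more. Isg15 stood at 495 CPM at 0 and 82.8 CPM at 0.1 to 0.5%, so it differed within the members as well as between the populations. Bins share 1 library, and CPM of other genes in a bin gives way to the genes that define it.

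**Figure D3:**
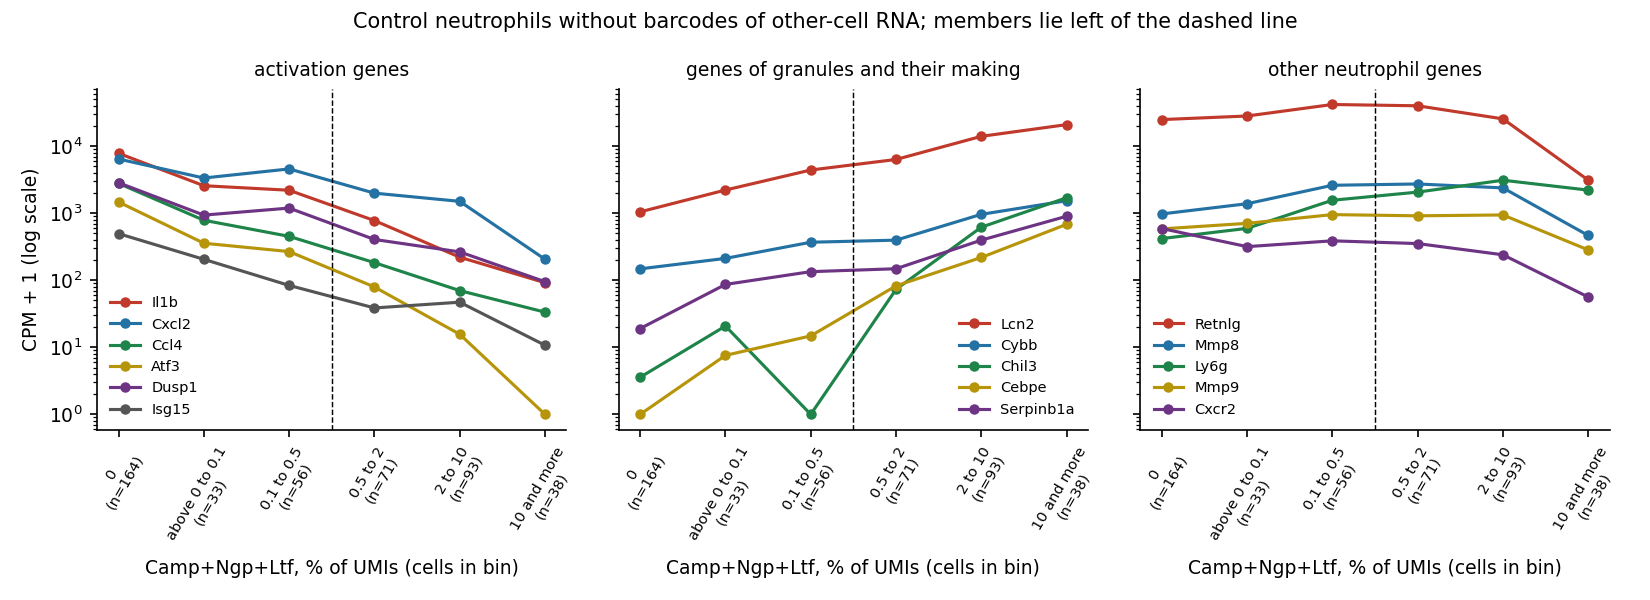
CPM + 1 on a log scale (vertical axis) in 6 bins of the share of Camp, Ngp and Ltf (horizontal axis, % of UMIs, cells per bin in brackets) for control neutrophils without barcodes of other-cell RNA, with members left of the dashed line. Activation genes (left) are highest at 0, with Il1b at 7824 CPM, granule genes (middle) are highest at 10% and more, with Lcn2 at 20933 CPM, and Retnlg (right) peaks at 0.1 to 0.5%.

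The members varied among themselves along calprotectin as well. In the 253 control members without other-cell RNA, Retnlg was at 6650 CPM in the 51 cells with 2 to 10% of UMIs in S100a8 and S100a9, then 20198, 41146 and 47620 CPM in the bins of 10 to 20%, 20 to 30% and 30% or more. Ly6g stood at 89.5, 262, 961 and 1641 CPM in the same bins. Il1b ran the other way at 6823, 6644, 5606 and 1886 CPM, and Ccl4 at 3965, 2042, 736 and 658 CPM. The haemoglobin gene Hbb-bs, at 137485 and 133096 CPM in the lower bins and 15192 and 5327 CPM in the higher ones, moved with the bins too, and its part in these values was not tested. Over 252 such cells thinned to 1000 UMIs, Spearman's rho was -0.41 between Retnlg and Il1b, 0.31 between Il1b and Ccl4 and 0.47 between Il1b and Atf3, as a description of cells that share 1 library.

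Clustering of the 273 control members by Leiden's method gave 5 sub-clusters, described by their leading genes. Sub-cluster 0 (121 cells, 44.3%) was led by the cytokine receptor gene Csf2rb, Acod1 and Osm, with 6612 CPM Il1b. Sub-cluster 1 (43 cells) was led by Cd74, Tmsb10 and Lyl1, with 9.85% of UMIs in calprotectin genes as its median, 8447 CPM Il1b, 3686 CPM Ccl3 and 10268 CPM Retnlg. Its median depth was low (1534 UMIs), but single barcodes reached 16058 and 22151 UMIs and weigh heavily on its summed values. Cd74, the MHC class II invariant chain, is a marker of antigen-presenting cells and had UMIs in 25.6% of its cells. Sub-cluster 2 (79 cells) was led by the haemoglobin genes Hbb-bt, Hbb-bs and Hba-a1 and by Ly6g, with 135830 CPM Hbb-bs, 38171 CPM Retnlg and 1750 CPM Il1b. Sub-cluster 3 (15 cells) was led by Timp1, Ppa1 and Omd, had a median of 16203 UMIs and 27234 CPM Col2a1, and 14 of its 15 barcodes were among the 20 with other-cell RNA.

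Sub-cluster 4 (15 cells, 5.49% of control members, 3.11 to 8.90) was led by interferon-response genes and by Cstdc5. Cstdc5 was at 6255 CPM in it and 126 CPM in the other members, and was detected in 40% of its cells. Isg15 was at 3112 CPM in it and 148 CPM in the other members, Rsad2 at 2266 CPM and 65.1 CPM, and Ifit3 at 1239 CPM and 13.2 CPM. Isg15 was detected in 80.0% of its cells, Rsad2 in 73.3% and Ifit3 in 46.7%. These cells had 9880 CPM Il1b and 6436 CPM Ccl4 beside 24323 CPM Retnlg, and none of them was a barcode of other-cell RNA. The promoters of Isg15, Rsad2 and Ifit3, shown above, all hold GAAANNGAAA. These 3 were chosen for display, 14 of the 29 interferon-response genes with a window held it, and its part in the sub-cluster was not tested. The clusters were found on the same counts, so their leading genes are no separate finding, and another number of principal components or a finer resolution changed the partition (adjusted Rand index 0.466 with 30 components, 0.514 at resolution 1).

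**Figure D4:**
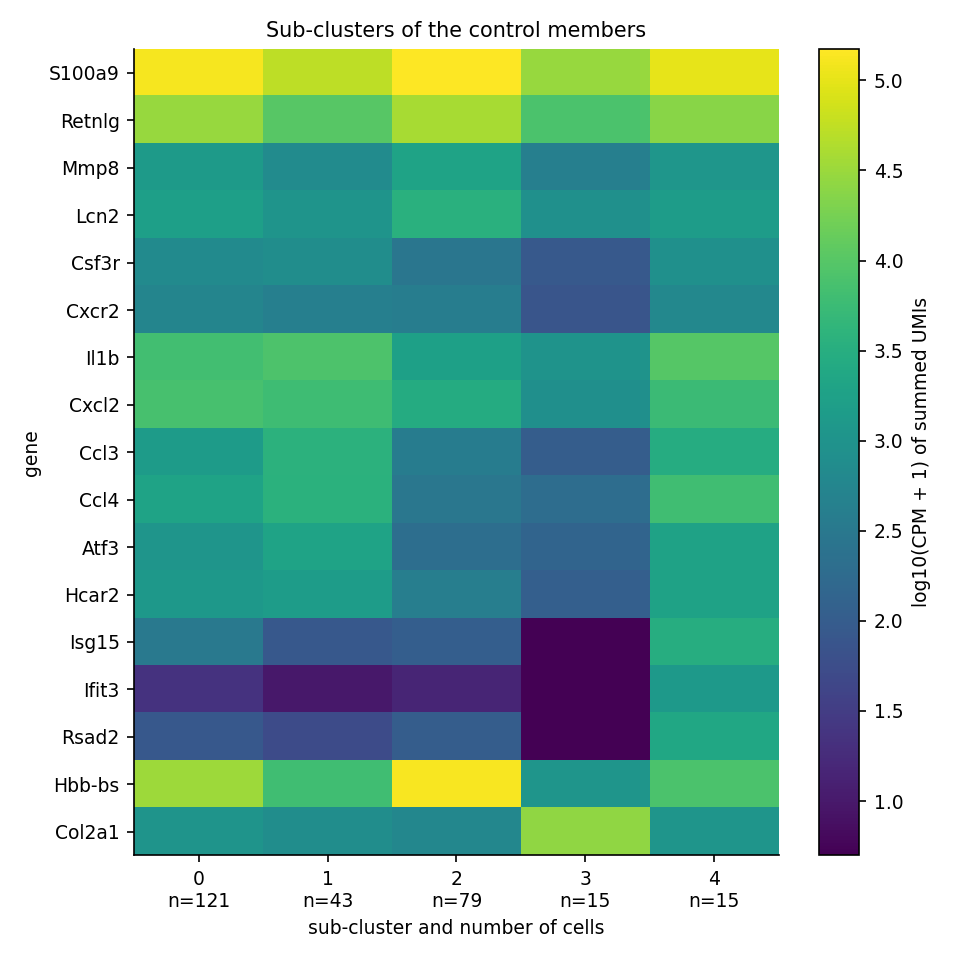
Level of 17 genes (rows) in the 5 sub-clusters of the 273 control members (columns, number of cells below each), as the log10 of CPM + 1 of summed UMIs by colour. Sub-cluster 4 is high in Isg15, Ifit3 and Rsad2, sub-cluster 2 in Hbb-bs and sub-cluster 3 in Col2a1, with low Il1b in both sub-clusters 2 and 3.

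Macrophages are the other main phagocyte of callus, and 47 control barcodes with at least 0.2% of UMIs in C1qa, C1qb and C1qc and less than 2% in S100a8 and S100a9 were set beside the mature neutrophils. Of 2890 genes, 722 (25%) were at least 2-fold higher in mature neutrophils and 828 (28.7%) at least 2-fold lower, with a median log2 ratio of all genes of -0.23 (0.05 with the rule genes left out of the totals, 0.63 under median scaling). Without the barcodes of other-cell RNA 567 of 2223 (25.5%) were higher and 862 (38.8%) lower. Of 24 neutrophil identity genes 21 were higher and 1 lower (median 5.81). S100a8 and S100a9 are among the neutrophil markers, and the rule set their direction in this contrast. Retnlg was at 24779 CPM against 5.15 CPM from 2 UMIs, and Lcn2, Trem1, a receptor that amplifies inflammation, and Ly6g had 0 UMIs in macrophages. With the macrophage side held at 3 counts their ratios were 246, 95.5 and 82.5, and the lower 95% limits were 200, 77.5 and 66.9. G0s2, an inhibitor of fat breakdown, was at 1942 CPM against 1 UMI.

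Several cytokine and chemokine genes were also higher than in macrophages. Il1b was at 4147 CPM in mature neutrophils and 64.4 CPM in macrophages (64.4-fold, 43.6 to 99.6), Ccl3 and Ccl4 were 19.6-fold and 22.5-fold higher, Osm 25.3-fold and Nlrp3 21.2-fold. Cxcl2 was at 4313 CPM against 729 CPM (5.92-fold), and Atf3 was nearer at 721 CPM against 415 CPM (1.74-fold, 1.46 to 2.07), and at 0.924 among barcodes with 1000 or more genes. Of 13 cytokine and chemokine genes 8 were higher and 2 lower, or 7 and 3 without the barcodes of other-cell RNA. Of 13 tissue neutrophil markers 5 were higher and 3 lower (median log2 ratio 0.80), and without those barcodes 5 and 6 of 11 (median -1.67). Interferon-response genes had 10 of 20 higher and 3 lower. The lower genes by the naming rule were those of macrophages: the complement genes C1qa, C1qb and C1qc, which chose the macrophages, Ms4a7 at 0.00126, the chemokine gene Ccl8 at 0.0021, the lipid carrier Apoe at 0.00422, the MHC class II gene H2-Aa at 0.00589 and its chaperone gene Cd74 at 0.00881. Of 16 ribosome and biosynthesis genes 13 were lower and 0 higher, and of 12 proliferation genes 9 were lower and 2 higher.

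The treated libraries held few members, so their levels are given with counting intervals and no test. Both comparisons share the control library. For PTH over control, 2079 genes were measured, of which 226 (10.9%) were at least 2-fold higher and 428 (20.6%) at least 2-fold lower, and the 95% interval excluded 1 for 139 and 163 of these. Without the barcodes of other-cell RNA 1398 genes were measured, with 128 (9.16%) higher and 130 (9.3%) lower. For YKL over control, 465 of 2049 genes (22.7%) were higher and 303 (14.8%) lower, with intervals that excluded 1 for 196 and 141, and without those barcodes 210 of 1376 (15.3%) and 168 (12.2%). The 465 include genes with 0 YKL UMIs, held at 3 counts, such as Ifit1 and Ifit3. No higher level was seen for such genes, and they are not among the 196. The median log2 ratio of all genes was 0.03 for PTH and 0.33 for YKL, and -0.44 for both under median scaling, so a ratio near 1 has no fixed direction.

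Il1b was higher in both treated libraries than in the control. It was at 11573 CPM in PTH members, 13953 CPM in YKL members and 4147 CPM in control members (5155 without other-cell RNA), 2.79-fold (2.54 to 3.06) and 3.36-fold (3.01 to 3.75) higher, or 2.29 and 2.71 without those barcodes. UMIs of Il1b were in 21 of 21, 10 of 10 and 239 of 273 members, with per-cell medians of 11440, 14710 and 4334 CPM and ranges that overlap. Cxcl2 was at 6770, 9526 and 4313 CPM, and Csf3r at 869, 1463 and 438 CPM (1.98-fold, 1.39 to 2.77, for PTH and 3.34-fold, 2.32 to 4.67, for YKL). Retnlg was lower in both, at 22437, 14230 and 24779 CPM (0.905, 0.849 to 0.965, and 0.574, 0.516 to 0.637). Members with 0 UMIs of Camp, Ngp and Ltf were 16 of 21 PTH, 9 of 10 YKL and 176 of 273 control members, and control members of that kind, without other-cell RNA, had 7824 CPM Il1b. Haemoglobin RNA was also higher in the control members, and its part in these ratios was not tested.

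By the naming rule Ifi27l2a, Isg15 and Fgl2 stood highest for PTH and Ifi27l2a, Tnfaip2 and Marcks for YKL. Ifi27l2a, an interferon-induced gene, was at 2699 CPM in PTH members, 2767 CPM in YKL members and 308 CPM in control members, 8.76-fold (7.03 to 10.9) and 8.98-fold (6.83 to 11.7) higher. It had UMIs in 13 of 21 PTH, 6 of 10 YKL and 61 of 273 control members, and a single PTH cell held 29.7% of that library's UMIs. Isg15 was at 1075, 198 and 244 CPM (4.40, 3.15 to 6.03, for PTH and 0.810, 0.261 to 1.91, for YKL), with 36.2% of the PTH UMIs in 1 of the 11 cells that had any; at an S100 minimum of 1% the YKL ratio was 3.57. Fgl2, a secreted fibrinogen-like protein, was 5.38-fold higher in PTH members (3.09 to 8.95) and level in YKL members (0.979, 0.117 to 3.65). Interferon-response genes passed 2-fold upward in 7 of 16 and downward in 0 for PTH (median 0.88), and 8 and 2 of 16 for YKL (median 1.07, but -0.30 over genes with at least 200 UMIs). The 8 for YKL include Ifit1 and Ifit3, which had 0 UMIs in YKL members against 52 and 54 in control members. Their YKL side was held at 3 counts, so no higher level was seen for them, and the YKL median rests partly on such genes.

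Tnfaip2, a gene induced by tumour necrosis factor, and Marcks, a membrane-to-actin linker, stood high in YKL members. Tnfaip2 was at 663 CPM in PTH members, 1739 CPM in YKL members and 196 CPM in control members, 3.39-fold (2.21 to 5.02) and 8.88-fold (6.25 to 12.4) higher, with 43.2% of the YKL UMIs in 1 of 7 cells. Marcks was at 389, 1067 and 180 CPM (2.16-fold, 1.23 to 3.55, and 5.92-fold, 3.80 to 8.91). Klf2, a factor that quiets myeloid activation, was at 3065, 3992 and 870 CPM, seen in 18 of 21, 9 of 10 and 202 of 273 members (3.52-fold, 2.91 to 4.23, and 4.59-fold, 3.70 to 5.64). Socs3 and Tsc22d3, the glucocorticoid-induced GILZ, were 4.12-fold and 4.30-fold higher for PTH and 7.12-fold and 6.25-fold higher for YKL. Of 23 feedback regulators 8 were higher and 0 lower for PTH (median 0.64; 5 of 22 without other-cell RNA), and 14 higher and 0 lower for YKL (median 1.12; 10 of 22). The salt-inducible kinase pathway had only 6 genes measured, with 0 higher and 1 lower for PTH and 3 higher and 1 lower for YKL. Genes with 0 YKL UMIs, held at 3 counts, can be among the 14 feedback regulators and these 3, and no higher level was seen for any such gene. Over the alternatives the median log2 ratio of the salt-inducible kinase pathway ran from -3.34 to 0.70 for PTH. For YKL it ran from -2.55 to 1.49, so the pathway has no fixed direction in either.

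Other genes were lower in one or both treated libraries. Ccl4 was at 366 CPM in PTH members, 2648 CPM in YKL members and 1390 CPM in control members, 0.263 (0.150 to 0.429) for PTH and 1.91-fold (1.47 to 2.44) for YKL, but its YKL UMIs came from 5 cells, 1 of which held 58.2%, and its PTH UMIs from 3. Over the alternatives its PTH ratio ran from 0.137 to 0.742. Ly6g was at 595 CPM in PTH members and 638 CPM in control members and had 0 UMIs in the 10 YKL members. With the YKL side held at 3 counts its ratio was 0.186, and up to 0.253 over the alternatives. Stfa1, a stefin that has near-identical paralogs, was at 68.6, 0 and 451 CPM, and Mmp8 at 1418, 356 and 1244 CPM. The lowest by the naming rule were genes of other cells. Hbb-bt was at 0.0689 (0.0393 to 0.112) for PTH and 0.0149 (0.0018 to 0.0538) for YKL, and the cartilage genes Col2a1 and Comp were at 0.0624 and 0.0456 for PTH, which became 0.550 and 0.510 without the barcodes of other-cell RNA. Genes of other cells then stood on the higher side as well for PTH. Fibroblast and bone markers were 0 higher and 5 lower of 8 over all members (median -1.15), and 4 higher of 4 without those barcodes (median 1.64), with the collagen gene Col3a1 at 538 CPM in PTH members and 116 CPM in control members (4.63, 2.79 to 7.40), the second highest gene by the naming rule in that set.

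**Figure D5:**
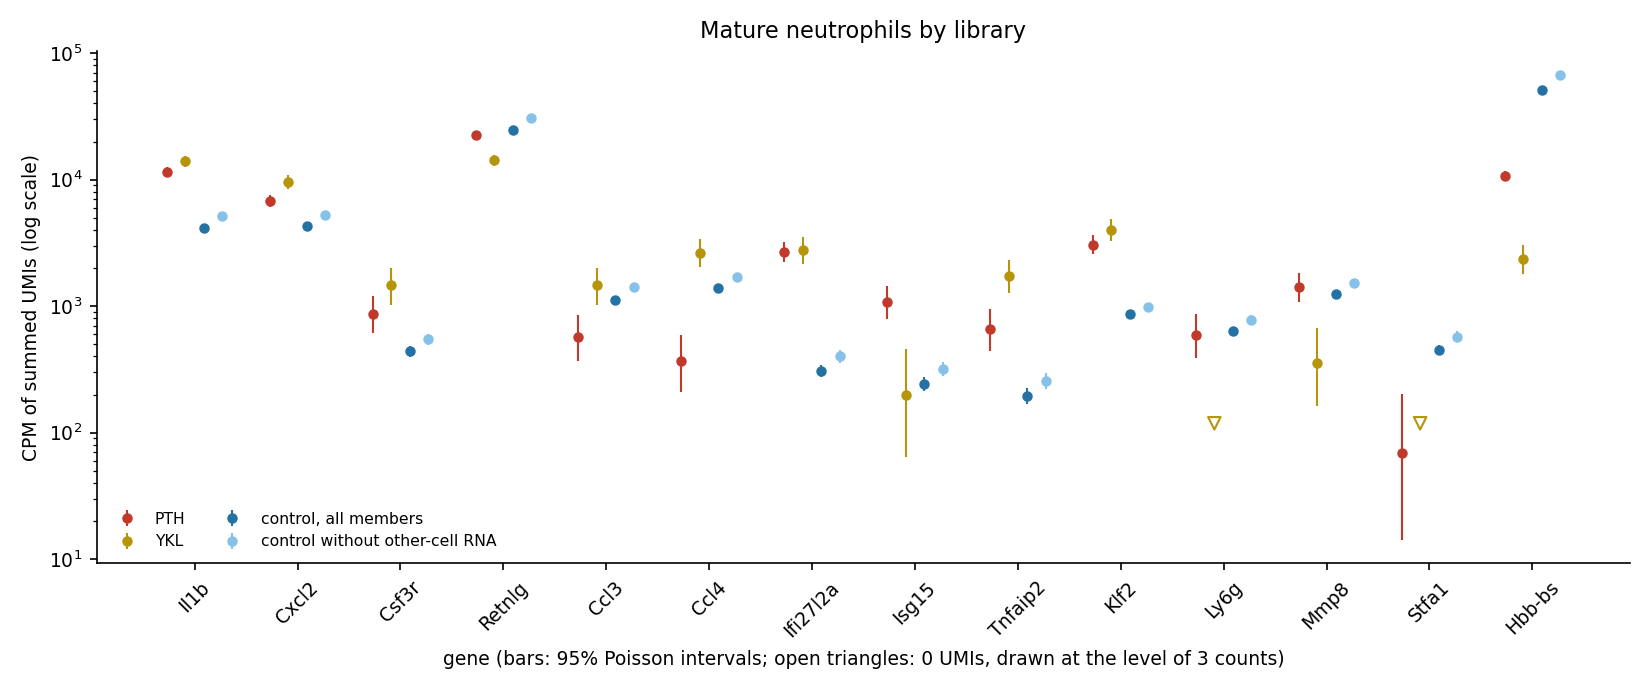
CPM of summed UMIs on a log scale (vertical axis) for 14 genes (horizontal axis) in mature neutrophils of the PTH, YKL and control libraries and of the control library without barcodes of other-cell RNA, with 95% Poisson intervals as bars and open triangles at the level of 3 counts for genes with 0 UMIs. Il1b, Ifi27l2a and Klf2 are higher in both treated libraries than in the control, while Hbb-bs is lower in both.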

How the data were processed

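The authors deposited raw UMI counts per gene and barcode for 3 droplet libraries, and per the file headers Cell Ranger 4.0.0 wrote them; the submitters' processing notes also name Seurat and mm10. All 32285 gene rows were used, and 78 rows that share a symbol were kept apart by identifier. Depth was 33981167 UMIs in 5286 PTH barcodes, 19424073 in 1500 YKL barcodes and 55250651 in 8021 control barcodes. Members and gene lists were chosen with earlier results of these data known. UMIs were summed per library and population and given as CPM. Ratios need 50 or more UMIs over both sides and carry exact conditional binomial 95% intervals, shares Clopper-Pearson intervals, and a side at 0 was held at 3 counts. All intervals and floors cover counting error only. Named genes are, per neutrophil or macrophage contrast, the 12 higher and 12 lower, and per treatment the 3 higher and 3 lower, whose interval bound nearest to 1 lies farthest out, given 100 CPM or more on 1 side and leaving out mitochondrial, ribosomal and predicted genes. Genes named for a list, and those chosen for their role after their values were seen, come beside them. No doublet caller was run; barcodes with over 1% of UMIs in other cells' markers are left out as an alternative. Libraries shared 2 (PTH and YKL), 8 (PTH and control) and 3 (YKL and control) barcode sequences, and none was a member in both. Sub-clusters used 1000 variable genes, 15 components, 15 neighbours and Leiden resolution 0.5. Of 554 list symbols 5 match no row. Promoter windows are RefSeq's for GRCm38.p6. The code was tested on simulated data and ran in Python 3.11.15 with numpy 2.4.6, scipy 1.17.1, pandas 2.3.3, scanpy 1.11.5 and scikit-learn 1.9.0.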

Additional observations from a re-analysis of the deposited data

How the results depend on the processing

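No paired analysis was possible because each group has 1 library. Few members limit the treated libraries, and depth limits genes under 50 UMIs. With 1000 genes as the minimum 2 PTH, 1 YKL and 40 control members remained, with a mitochondrial maximum of 5% 5 PTH and 161 control members, and with 20% 33 PTH members. Counts of genes at least 2-fold apart moved by over 1.5 times as follows. In mature neutrophils over neutrophils with granule genes, higher genes were 402 at a 5% S100 minimum, 362 without barcodes of other-cell RNA and 394 without the deepest 5%; higher and lower genes were 446 and 305 with the rule genes out of the totals, 464 and 287 under median scaling, 200 and 286 with those barcodes and the rule genes out (added after seeing the data), 1550 and 325 at 20 UMIs, 249 and 55 at 200 UMIs, and 1342 and 305 at 1.5-fold. Over macrophages they were 466 and 349 at 1000 genes, 1192 and 269 under median scaling, 1248 and 1672 at 20 UMIs, and 243 and 238 at 200 UMIs, with 426 lower at 5% mitochondrial. For PTH over control, higher and lower genes were 128 and 130 without other-cell RNA, 140 and 127 without the deepest 5%, and 48 and 140 at 200 UMIs; 203 were lower at 5% S100 and 249 with cells weighted equally, and 59 were higher under median scaling, 1160 at 20 UMIs and 488 at 1.5-fold. For YKL over control they were 210 and 168, 202 and 153, and 94 and 162 in the same order, 77 and 677 under median scaling and 818 and 487 at 1.5-fold; 225 were higher at 5% S100, 292 at a granule maximum of 0.25% and 2041 at 20 UMIs. Sub-clusters numbered 8 at resolution 1.
Direction turned for Cstdc5 in mature over granule-gene neutrophils (0.979 at 1000 genes), for the median log2 ratio of primary granule genes (0.086 without the deepest 5%) and of ribosome genes (-0.047 with other-cell RNA and the rule genes out; 0.15 for PTH without the deepest 5%), and of interferon genes for YKL (-0.30 at 200 UMIs). The cause was not tested. These were the directions that turned among genes at least 2-fold apart and lists with a median of at least 1 on the log2 scale. Among the other gene ratios 28 of 54, and among the other list medians 37 of 60, had a value on the other side of no difference under at least 1 alternative. These include Atf3 over macrophages (0.924 at 1000 genes), Retnlg in mature over granule-gene neutrophils (down to 0.823), and the medians of tissue neutrophil markers over macrophages (down to -1.67), of cytokines for PTH (up to 0.52) and YKL (down to -0.098), and of hypoxia (down to -0.47) and tertiary granule genes (down to -0.28) in mature over granule-gene neutrophils. Of the alternative values of gene ratios, 2484 stayed within the counting interval, 727 moved with the same direction and 62 moved to the other side.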
